A study of Mus musculus with 13 samples.

Results

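Sdc4, Colq, Ttc39c, Plcd3, Pkd1l1, Fam129a and Gcg are 7 mouse genes with no established role in regulatory T cells (Tregs) that were read less in Tregs lacking c-Rel, an NF-kB subunit. They were chosen by their read counts in KO (c-Rel knockout) against WT (wild-type) cells and then matched by symbol in 3 tables of read counts per gene, one for each stage of the Treg lineage, and each gene was found in all of them. The 7 genes were thus 7 of 47729 genes in the pre-Treg table and 7 of 22048 protein-coding genes in each of the de novo and splenic tables. Because the knockout against wild-type values chose them, those values are given here as a description, with no p-value printed. Counts of calls and counting intervals for them describe the choice and support nothing.

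The 13 RNA sequencing libraries came from Foxp3rfp reporter mice of the C57BL6/J strain, either cRel-/- (knockout, KO) or cRel+/+ (wild type, WT). Pre-Tregs, the thymic precursors of Tregs, gave 3 KO and 2 WT libraries, de novo Tregs of the thymus gave 2 KO and 2 WT, and splenic Tregs (labelled tTreg) gave 2 KO and 2 WT. CD4 T cells were enriched on magnets and sorted by flow cytometry. The labels name no Cre, give no ages and do not say which libraries were separate animals, so a p-value here covers the spread between libraries, part of which may be technical.

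c-Rel is held in the cytoplasm until antigen and co-stimulatory receptors signal, then enters the nucleus and binds kB sites, and it is best known in the Treg lineage for its part in switching on Foxp3 in the thymus. The 7 genes belong to unrelated pathways. Sdc4 encodes syndecan-4, a cell-surface heparan sulfate proteoglycan of adhesion sites. Colq encodes the collagen tail that anchors acetylcholinesterase at the neuromuscular junction. Plcd3 encodes a phospholipase C that cleaves membrane phosphoinositide, and Pkd1l1 a polycystin of cilia that acts in left-right patterning. Fam129a encodes Niban, a protein induced by endoplasmic reticulum stress, Ttc39c a tetratricopeptide repeat protein, and Gcg the precursor of glucagon and GLP-1.

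In the deposited annotation columns (GRCm38), Sdc4 (ENSMUSG00000017009) lies at chr2:164424247-164443887 on the minus strand with 2547 exon bases, and Gcg (ENSMUSG00000000394) at chr2:62474530-62483650 on the minus strand with 1494. Plcd3 (ENSMUSG00000020937; chr11:103070304-103101658, minus strand, 3393 exon bases) and Pkd1l1 (ENSMUSG00000046634; chr11:8826708-8973266, minus strand, 7640 exon bases) are on one chromosome but far apart. Colq (ENSMUSG00000057606) lies at chr14:31523082-31591343 on the minus strand with 3803 exon bases and Fam129a (ENSMUSG00000026483) at chr1:151571186-151721939 on the plus strand with 7380.

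Upstream sequence was examined because the 7 genes were low together in cells without a kB-binding factor. Of the 7 genes, 5 matched RefSeq's promoter table (GRCm38.p6), and the 250 bases before each start were searched on both strands for the broad kB pattern GGGNNNNNCC and for the narrower GGGNNNTTCC, every match of which is also a match of the broad one. The broad pattern was in the windows of 2 of the 5 genes, Sdc4 and Fam129a, against 45.8% of the 32851 windows of that length in the table, and the narrower one in that of Sdc4 alone, against 4.65%. The 3 sequences below are those of the genes with a match and of Gcg, which had none but was at 0 counts in all KO de novo and splenic libraries. They run 5′ to 3′ on the gene's strand up to the base before the RefSeq start, and capitals mark bases inside a match of the broad pattern on either strand. The Sdc4 window, chr2:164443189-164443438 (minus strand), lies inside the gene span of the deposited table, and its narrower match is GGGGAATTCC. The Fam129a window is chr1:151571123-151571372 (plus strand) and the Gcg window chr2:62483654-62483903 (minus strand). From 151571186 onward the Fam129a window also lies inside the gene span of the deposited table, and so do all of its matches.
Sdc4: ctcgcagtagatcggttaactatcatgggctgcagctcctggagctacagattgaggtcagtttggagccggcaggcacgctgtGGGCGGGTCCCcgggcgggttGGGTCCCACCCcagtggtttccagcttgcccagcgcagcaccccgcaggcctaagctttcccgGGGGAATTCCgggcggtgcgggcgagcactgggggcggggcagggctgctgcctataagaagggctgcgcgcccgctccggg
Fam129a: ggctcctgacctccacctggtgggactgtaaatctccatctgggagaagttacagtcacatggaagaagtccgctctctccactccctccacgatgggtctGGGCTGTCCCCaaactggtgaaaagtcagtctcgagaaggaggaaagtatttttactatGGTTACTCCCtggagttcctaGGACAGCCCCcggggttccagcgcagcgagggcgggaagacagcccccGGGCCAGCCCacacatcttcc
Gcg: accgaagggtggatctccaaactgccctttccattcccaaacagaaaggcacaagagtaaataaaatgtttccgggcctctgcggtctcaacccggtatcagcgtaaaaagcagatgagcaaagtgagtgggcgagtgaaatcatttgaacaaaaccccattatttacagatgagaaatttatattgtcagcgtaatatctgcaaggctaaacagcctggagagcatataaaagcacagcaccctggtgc

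A match is a string of letters, and no binding data were used. Sdc4 had 5 matches of the broad pattern and Fam129a 7, counting both strands and overlaps. The Plcd3 and Pkd1l1 windows, like that of Gcg, held neither pattern. Genes with and without a match were therefore both among those read less in KO Tregs.

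Counts were scaled to library size as CPM, over the 22048 genes common to the tables. Library totals ranged from 13656304 to 29866696 counts in pre-Tregs, 25122095 to 28235996 in de novo and 32291272 to 35114430 in splenic Tregs, and over the common genes they ranged from 13163398 to 35114430, where 3 counts, the upper limit that a count of 0 allows, were between 0.0854 and 0.228 CPM. KO pre-Treg replicate 2 stood apart: it had the 29866696 counts, the most of its stage, and a library name of another style. The pre-Treg genotype values of Sdc4, Colq, Fam129a and Ttc39c are given with and without it, and most other pre-Treg values only with it. Rel reads were not reduced to 0 in KO libraries (62.4 ± 8.32 CPM in KO and 107.7 ± 1.11 CPM in WT pre-Tregs, 90.9 ± 5.22 CPM in KO and 97.9 ± 1.69 CPM in WT de novo Tregs, 43.3 ± 1.68 CPM in KO and 50.2 ± 6.64 CPM in WT splenic Tregs; SD), and gene-level counts do not show which exons they cover, so they do not check the genotype. All 7 Treg and CD4 markers looked for, Foxp3 and Cd4 among them, had reads in every group. Foxp3 overlapped between KO and WT at each stage, but some others moved with genotype without overlap, in either direction. Ikzf2 had 116 to 213 CPM in KO and 449 to 626 CPM in WT pre-Tregs. Ctla4 had 612 to 617 CPM in KO and 445 to 480 CPM in WT de novo Tregs, and 523 to 543 and 267 to 321 CPM in splenic Tregs. Il2ra had 1242 to 1394 CPM in KO and 973 to 992 CPM in WT de novo Tregs. Lower in KO de novo Tregs were Tnfrsf18 (1422 to 1540 CPM in KO, 1542 to 1723 CPM in WT), Cd4 (620 to 664 and 670 to 687 CPM) and Cd3e (923 to 979 and 1025 to 1035 CPM). Cd4 (691 to 753 and 760 to 801 CPM) and Cd3e (984 to 1044 and 1053 to 1063 CPM) were also lower in KO splenic Tregs. Cd3e was higher in KO pre-Tregs (955 to 1055 and 846 to 878 CPM). The part of these markers in the values below was not tested. In bulk samples, fewer cells of a type and less RNA per cell cannot be told apart.

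All 7 genes were lower in both KO than in both WT de novo libraries, with a log2 fold change between −3.45 and −2.12 for the 4 genes read in every library (Ttc39c, Sdc4, Colq and Fam129a) and a larger one for Plcd3, Pkd1l1 and Gcg. All 7 were also lower in both KO than in both WT splenic libraries, and 4 in all KO than in all WT pre-Treg libraries. A gene was called at a Benjamini-Hochberg adjusted p under 0.05 in edgeR's quasi-likelihood test, run within each stage. De novo Tregs had 7 of the 7 called lower, where 6.46% of all tested genes were called in either direction (3.54% lower) and 27.1% were lower without overlap. Splenic Tregs had 5 called of the 6 tested, where 1.37% of all genes were called (0.758% lower) and 23.5% were lower without overlap. Pre-Tregs had 0 called of the 4 tested, where 0% of all genes were called, 969 genes had an unadjusted p under 0.05, DESeq2 called 88 genes, limma-voom called 0 and 11.5% were lower without overlap. These counts follow from how the genes were chosen, and nothing is read from them.

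**Figure D1:**
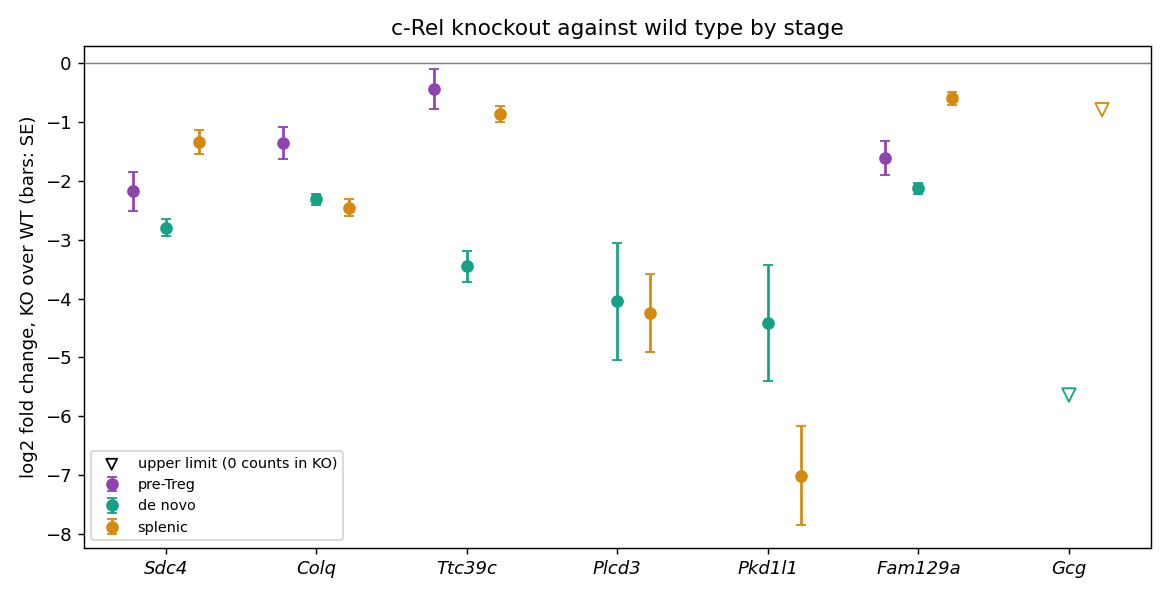
Fitted log2 fold change of KO over WT (vertical axis) with its standard error for each gene at each stage. Open triangles mark Gcg, whose KO libraries had 0 counts, at the upper limit from a floor of 3 counts per library. All plotted values are below 0, and Fam129a, Ttc39c and Sdc4 are closer to 0 in splenic than in de novo Tregs while Colq is not.

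Just inside the called group in splenic Tregs was Ttc39c, with a log2 fold change of −0.87 (SE 0.14), and just outside it Fam129a, with −0.60 (SE 0.11). Sdc4, Colq, Ttc39c and Fam129a had reads in every library. Plcd3 and Pkd1l1 had few counts in every group and were near the detection limit in all KO groups, and Gcg had reads well above that limit in WT de novo Tregs alone.

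Sdc4, the syndecan, had 1.94, 2.14 and 2.16 CPM in KO pre-Tregs, against 7.97 and 10.8 CPM in WT pre-Tregs. In de novo Tregs it had 5.29 and 4.56 CPM in KO, against 34.0 and 35.1 CPM in WT. In splenic Tregs it had 7.72 and 5.45 CPM in KO, against 15.9 and 17.6 CPM in WT. Every KO library of any stage was below every WT library of any stage, and the WT de novo libraries were the highest. The log2 fold change of KO over WT was −2.18 (SE 0.33) in pre-Tregs, −2.80 (SE 0.15) in de novo and −1.34 (SE 0.20) in splenic Tregs. Without KO pre-Treg replicate 2 the pre-Treg value was −2.23.

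Colq, the acetylcholinesterase tail, had 73.5, 131 and 101 CPM in KO pre-Tregs, against 244 and 280 CPM in WT pre-Tregs. It had 49.5 and 55.2 CPM in KO de novo Tregs, against 257 and 270.2 CPM in WT, and 10.3 and 11.7 CPM in KO splenic Tregs, against 63.7 and 57.0 CPM in WT. Groups did not overlap at any stage, and the splenic libraries were the lowest of each genotype. The log2 fold change was −1.36 (SE 0.27) in pre-Tregs, or −1.63 without KO pre-Treg replicate 2, which was the highest of its group, −2.32 (SE 0.09) in de novo and −2.46 (SE 0.14) in splenic Tregs. Colq shares 199 of its 3803 exon bases with Hacl1 on the same strand, and reads there may be assigned to either gene. Hacl1, a peroxisomal lyase gene, had a log2 fold change of −0.66 in pre-Tregs, −0.03 in de novo and −0.02 in splenic Tregs and was not called.

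Fam129a, which encodes Niban, had 20.5, 22.6 and 26.1 CPM in KO pre-Tregs, against 47.8 and 93.1 CPM in WT pre-Tregs. It had 32.5 and 29.4 CPM in KO de novo Tregs, against 136 and 137 CPM in WT, and 110.4 and 93.6 CPM in KO splenic Tregs, against 157 and 154 CPM in WT. The groups did not overlap at any stage, and the splenic libraries were the highest of each genotype. The log2 fold change was −1.62 (SE 0.29) in pre-Tregs, −2.12 (SE 0.09) in de novo and −0.60 (SE 0.11) in splenic Tregs. The WT pre-Treg libraries differed widely from each other, and leaving out 1 pre-Treg library at a time gave −2.01 to −1.09, with −1.63 without KO replicate 2.

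Ttc39c (ENSMUSG00000024424) lies on the plus strand at chr18:12599926-12737050 and has 5197 exon bases. It had 3.36, 3.94 and 5.12 CPM in KO pre-Tregs, against 5.54 and 5.62 CPM in WT pre-Tregs. It had 1.55 and 1.26 CPM in KO de novo Tregs, against 12.7 and 18.5 CPM in WT, and 13.4 and 14.1 CPM in KO splenic Tregs, against 23.8 and 26.5 CPM in WT. The KO and WT libraries nearly met in pre-Tregs and were far apart in de novo Tregs, where KO libraries were the lowest of all. The log2 fold change was −0.44 (SE 0.35) in pre-Tregs, −3.45 (SE 0.26) in de novo and −0.87 (SE 0.14) in splenic Tregs. Without KO pre-Treg replicate 2 the pre-Treg value was −0.44. The splenic call of Ttc39c was lost without WT replicate 2 and in the fit of all 13 libraries.

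**Figure D2:**
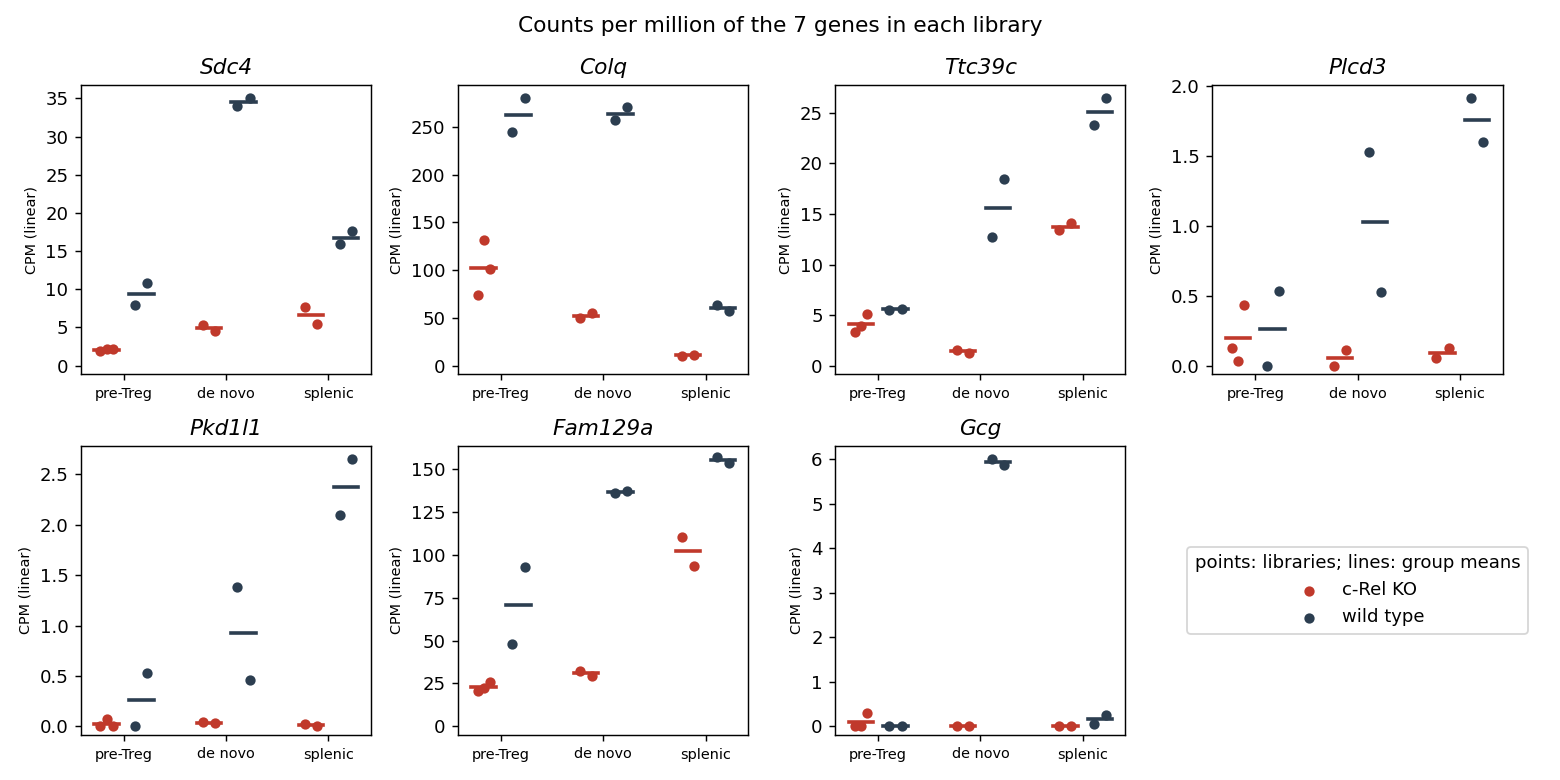
CPM (vertical axis, linear, from 0) of each gene in each of the 13 libraries by stage, KO left of WT. Points are libraries and lines group means. Gcg averages 5.94 CPM in the WT de novo libraries and near 0 in all other groups, while Colq is lowest in splenic Tregs.

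Plcd3, the phospholipase C, had 2, 1 and 7 counts in KO pre-Tregs, against 0 and 7 counts in WT pre-Tregs, and the groups overlapped. It had 0 and 3 counts in KO de novo Tregs, against 42 and 15 counts in WT, and 2 and 4 counts in KO splenic Tregs, against 64 and 55 counts in WT. WT libraries were higher at both of these stages, although the WT de novo libraries differed from each other. Over the pooled de novo libraries the ratio of WT to KO per count sequenced was 17.8, with an exact 95% interval of 5.78 to 88.7. The splenic log2 fold change of KO over WT was −4.24 (SE 0.66). The de novo call of Plcd3 was lost without KO replicate 1 or WT replicate 1, with fitted log2 values between −7.80 and −3.09 over the libraries left out, and both of its calls were lost in the fit of all 13 libraries.

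Pkd1l1, the polycystin, had 0, 2 and 0 counts in KO pre-Tregs, against 0 and 7 counts in WT pre-Tregs, and the groups overlapped. It had 1 and 1 counts in KO de novo Tregs, against 38 and 13 counts in WT, and 1 and 0 counts in KO splenic Tregs, against 70 and 91 counts in WT. No KO library of any stage had more than 2 counts, and WT libraries were highest in the spleen. The ratio of WT to KO over pooled libraries was 7.99 (exact 95% interval 1.52 to 78.9) in pre-Tregs, 23.9 (6.27 to 202.3) in de novo and 160.2 (28.3 to 6366) in splenic Tregs. The intervals of both genes cover counting error only. The de novo call of Pkd1l1 was lost without KO replicate 1, KO replicate 2 or WT replicate 1 and in the fit of all 13 libraries. In de novo and splenic Tregs, Plcd3 and Pkd1l1 passed the count filter through the WT libraries alone, so nothing is read from their calls.

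Gcg, which encodes proglucagon, had 0, 0 and 5 counts in KO pre-Tregs, against 0 and 0 counts in WT pre-Tregs. It had 0 and 0 counts in KO de novo Tregs, against 165 and 166 counts in WT, which are 6.01 and 5.88 CPM. In splenic Tregs it had 0 and 0 counts in KO, against 2 and 9 counts in WT. Among WT cells the gene was thus read at one stage, de novo Tregs, at almost equal levels in both libraries, and was at or near the detection limit before and after it. With a floor of 3 counts per library, Gcg was at least 49.8-fold lower in KO de novo Tregs and at least 1.73-fold lower in KO splenic Tregs. The splenic bound sets the mean of both WT libraries against the floor and does not hold for each of them. Most of that mean comes from the 9 counts of WT replicate 2, and the 2 counts of WT replicate 1 are below the floor and alone give no bound. Of 8 markers of endocrine cells, a known source of proglucagon, Ins1, Ins2, Sst, Ppy, Pyy and Iapp had 0 counts in every library and the summed level of all 8 was at most 0.199 CPM in KO and 0.212 CPM in WT de novo libraries.

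Markers of some other cells moved with genotype in de novo and splenic Tregs, and their part in the values above was not tested. Summed over 8 thymic epithelial markers, de novo KO libraries had 28.8 to 29.8 CPM and WT libraries 16.4 to 18.8 CPM, nearly all of it Epcam, with Krt5, Foxn1, Psmb11 and Cldn3 at 0 in both groups. Also in de novo Tregs, 5 CD8 and NK markers summed to 29.8 to 36.3 CPM in KO and 37.3 to 41.3 CPM in WT, 6 B and plasma cell markers to 33.0 to 37.1 CPM in KO and 30.0 to 31.5 CPM in WT, and 6 fibroblast and endothelial markers to 4.30 to 4.38 CPM in KO and 2.05 to 3.93 CPM in WT. The haemoglobin gene Hbb-bs, a red cell marker, had 0.159 to 0.260 CPM in KO and 1.10 to 56.6 CPM in WT de novo libraries, and Hba-a1 had 0 to 0.0371 CPM in KO and 1.06 to 30.0 CPM in WT, lower in KO like the 7 genes. In splenic Tregs, 7 myeloid and dendritic markers summed to 1.92 to 23.95 CPM in KO and 37.2 to 66.2 CPM in WT, 5 CD8 and NK markers to 18.1 to 23.2 CPM in KO and 32.0 to 33.6 CPM in WT, and 6 B and plasma cell markers to 59.7 to 92.4 CPM in KO and 39.5 to 49.7 CPM in WT. The splenic sums of the thymic epithelial list were 43.1 to 45.8 CPM in KO and 29.5 to 39.8 CPM in WT, and those of the fibroblast and endothelial list 5.11 to 6.46 CPM in KO and 2.42 to 2.75 CPM in WT.

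Per kilobase of exon the 7 genes spanned the range of detected genes in WT de novo Tregs, where the median detected gene had 4.75 CPM per kb. Colq led with 69.3 CPM per kb, at percentile 93.5 of 14409 detected genes, followed by Fam129a with 18.5 and Sdc4 with 13.6 CPM per kb. Gcg had 3.98 and Ttc39c 3.00 CPM per kb, below the median, and Plcd3 had 0.304 and Pkd1l1 0.121 CPM per kb. In KO de novo Tregs Colq had 13.8 CPM per kb, at percentile 69.9, and Fam129a 4.20, Sdc4 1.93 and Ttc39c 0.271 CPM per kb. In splenic Tregs Fam129a led, with 13.8 CPM per kb in KO and 21.0 CPM per kb in WT, ahead of Colq with 2.89 CPM per kb in KO and 15.9 CPM per kb in WT.

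Differences between stages were tested with contrasts of group means over all 13 libraries and 13058 genes, with edgeR and p-values adjusted over all of them. The stage contrasts use the same libraries as the genotype values, both contrasts within a genotype share the de novo libraries, and each stage has a table of its own, and splenic cells a tissue of their own, so stage, table and tissue cannot be told apart. Of de novo against pre-Tregs in WT, 4 of the 7 genes were called (Sdc4, Ttc39c, Fam129a and Gcg), all higher, where 30.7% of all genes were called and 16.1% called higher. In KO the same contrast called 4 genes, 2 higher and 2 lower, where 32.4% were called, 15.4% higher and 17% lower. Of splenic against de novo Tregs, WT had 3 called (Sdc4, Colq and Gcg), all lower, where 7.45% were called and 3.95% called lower, and KO had 3 called, 2 higher and 1 lower, where 12.9% were called, 6.48% higher and 6.39% lower. Gcg passed the count filter through the WT de novo libraries alone, so its WT calls follow from the filter and the choice, and nothing is read from them. For the other 6 genes too, the libraries in the stage contrasts took part in the choice. Their stage p-values and calls are therefore not free of it and are given as a description. In the de novo against pre-Treg contrasts a call is common among all genes. A fit on TMM-scaled libraries gives the log2 changes, so they can differ slightly from ratios of CPM.

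Sdc4 rose in de novo over pre-Tregs by 1.43 on the log2 scale (SE 0.22, edgeR adjusted p = 0.000444) in KO and by 2.04 (SE 0.23, adjusted p = 0.000101) in WT. Past that point the genotypes differed in sign: splenic over de novo Tregs gave 0.38 (SE 0.23, adjusted p = 0.328) in KO and −1.07 (SE 0.22, adjusted p = 0.00999) in WT. The WT value lost its call when any 1 of the 4 WT libraries involved was left out, with adjusted p between 0.0812 and 0.121.

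Colq fell in splenic against de novo Tregs in both genotypes, the log2 values being −2.29 (SE 0.24, edgeR adjusted p = 0.0001) in KO and −2.15 (SE 0.24, adjusted p = 0.000278) in WT. In de novo against pre-Tregs it fell in KO (−0.77, SE 0.21, adjusted p = 0.0151) and had 0.16 (SE 0.23, adjusted p = 0.599) in WT. The KO fall lost its call without de novo KO replicate 1 (adjusted p = 0.125) or 2 (adjusted p = 0.0671), and was −0.52 (adjusted p = 0.0115) without KO pre-Treg replicate 2. In a fit of the KO libraries of these groups alone it had an adjusted p of 0.0948.

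Ttc39c moved in opposite directions at the first step: de novo over pre-Tregs was −1.36 (SE 0.26, edgeR adjusted p = 0.00212) in KO and 1.64 (SE 0.26, adjusted p = 0.000991) in WT. In a fit of the KO libraries of these groups alone, the KO fall had an adjusted p of 0.0557. At the next step it rose in KO, by 3.25 (SE 0.28, adjusted p = 2.4e-05), and had 0.66 (SE 0.24, adjusted p = 0.122) in WT. Whether the genotypes differ in these steps was not tested, since that difference contains the genotype values that chose the genes.

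Fam129a rose in de novo over pre-Tregs by 0.62 (SE 0.21, edgeR adjusted p = 0.0414) in KO and 1.12 (SE 0.23, adjusted p = 0.00484) in WT. In splenic over de novo Tregs it rose in KO, by 1.68 (SE 0.24, adjusted p = 0.000767), and had 0.16 (SE 0.23, adjusted p = 0.758) in WT. The first KO rise lost its call without de novo KO replicate 1 (adjusted p = 0.214), de novo KO replicate 2 (adjusted p = 0.127) or pre-Treg KO replicate 1 (adjusted p = 0.105). It was also lost in a fit of the KO libraries of these groups alone (adjusted p = 0.0619) and with limma-voom (adjusted p = 0.0581).

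**Figure D3:**
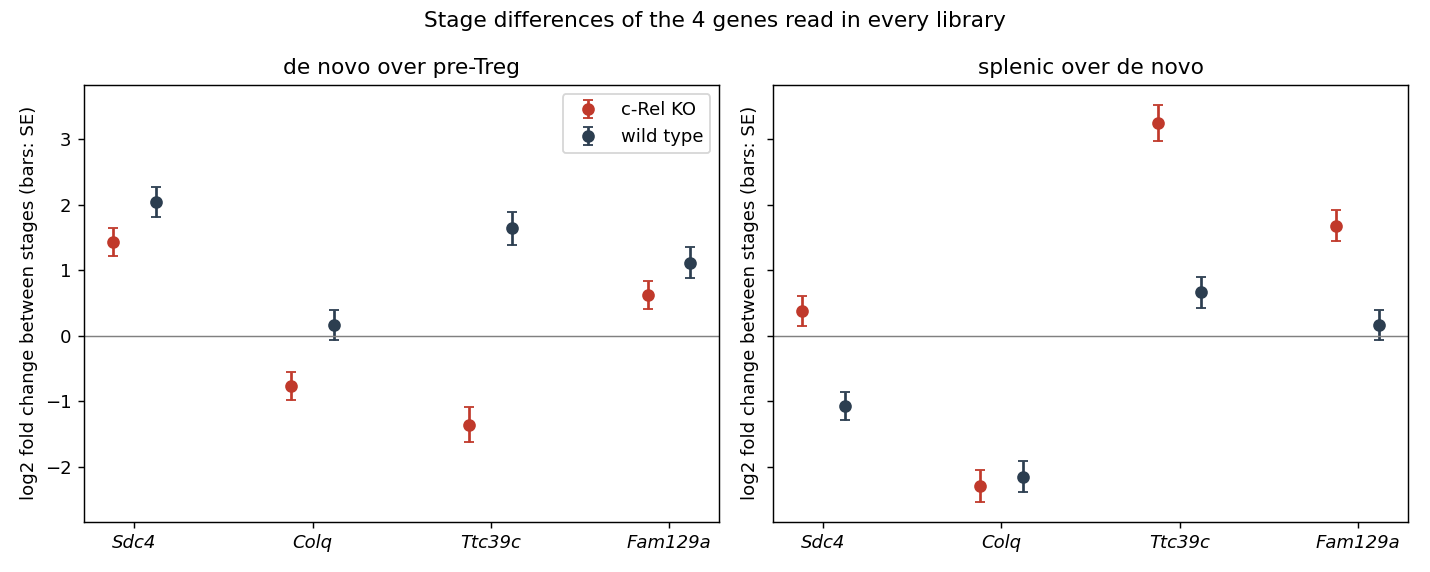
Log2 fold change between stages (vertical axis) with its standard error in KO (left point of each pair) and WT (right point) for the 4 genes read in every library, de novo over pre-Tregs on the left panel and splenic over de novo Tregs on the right. Ttc39c is below 0 in KO and above 0 in WT at the first step, and Colq is at −2.29 in KO and −2.15 in WT at the second.

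Gcg was at least 26.1-fold higher in WT de novo Tregs than in WT pre-Tregs, where both libraries had 0 counts. Its mean was 0.161 CPM in WT splenic Tregs and 5.94 CPM in WT de novo Tregs. Both are given as a description, since the WT de novo level was part of the choice. Plcd3 and Pkd1l1 were called at no step. In WT, splenic over de novo Tregs gave 0.74 (SE 0.99, edgeR adjusted p = 0.735) for Plcd3 and 1.33 (SE 0.88, adjusted p = 0.432) for Pkd1l1, with intervals wide enough at these counts to hold changes of several fold.

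The genes beside each of the 7 on its chromosome were examined next, taking the 3 nearest protein-coding genes on each side in RefSeq order. Of these 42 neighbours, 27 were tested in de novo Tregs and 1 was called, where 6.46% of all genes were called and 2.92% were called higher. It was 1700025G04Rik, which lies 163092 bases from Fam129a and was higher, with 63.5 ± 6.85 CPM in KO and 43.2 ± 3.07 CPM in WT (SD, n = 2 each; log2 fold change 0.57, SE 0.11, edgeR adjusted p = 0.00911). None of the 27 tested in pre-Tregs or the 30 tested in splenic Tregs was called. The median log2 fold change of KO over WT among tested neighbours was −0.19 in pre-Tregs, −0.02 in de novo and 0.01 in splenic Tregs, beside 0.03, −0.0027 and 0.00055 over all genes at those stages. At the Plcd3 locus, Nmt1, a myristoyltransferase gene 1384 bases away, had 135.6 ± 1.39 CPM in KO and 135.3 ± 3.41 CPM in WT de novo Tregs. At the Gcg locus, Dpp4, 62215 bases away, encodes the peptidase that cleaves GLP-1 and had 111.2 ± 5.18 CPM in KO and 101.6 ± 2.55 CPM in WT de novo Tregs (log2 fold change 0.15, SE 0.08, adjusted p = 0.417).

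**Figure D4:**
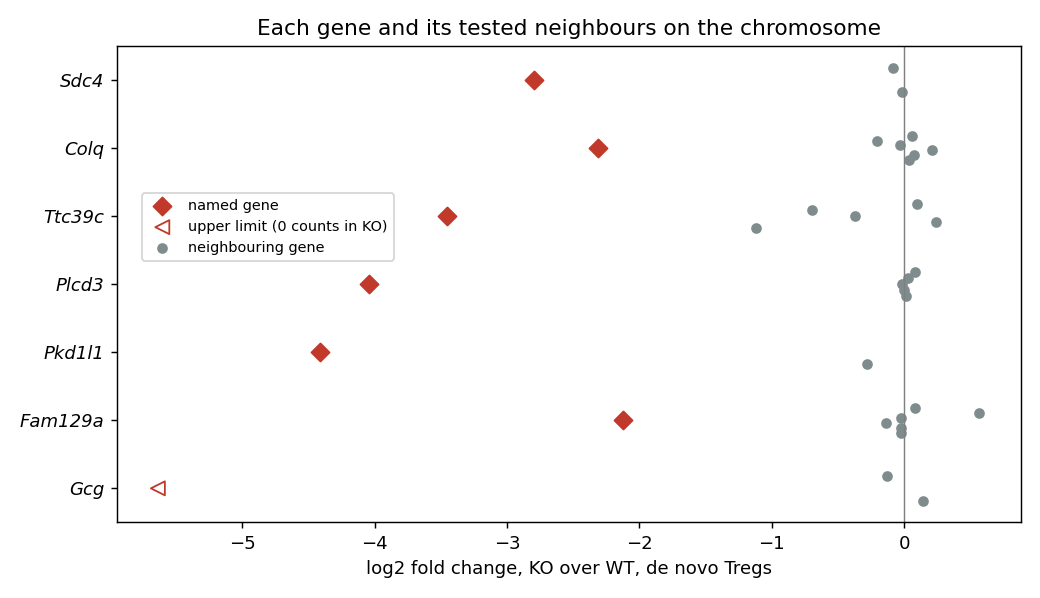
Log2 fold change of KO over WT in de novo Tregs (horizontal axis) of each named gene (diamonds, or an open triangle for the upper limit of Gcg) and of its tested neighbours on the chromosome (grey points). All named genes lie below −2, and the lowest tested neighbour, beside Ttc39c, is at −1.12.

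Relatives and pathway partners of the 7 genes were taken from lists. In pre-Tregs 0 genes of any of the 9 lists were called, and in splenic Tregs only genes of the list of textbook NF-kB targets were, so the values below are from de novo Tregs, with edgeR adjusted p-values. Among syndecans, glypicans and heparan sulfate enzymes, 2 of 17 tested genes rose and 0 fell (median −0.04), where 2.92% of all genes were called higher and 3.54% lower, shares that also stand beside the de novo counts of the other lists. Sdcbp, the syndecan-binding adaptor syntenin, was higher by 0.31 on the log2 scale (SE 0.07, adjusted p = 0.0219) and Hs3st3b1, a heparan sulfate sulfotransferase, 1.17 (SE 0.29, adjusted p = 0.0376). Sdc3, another syndecan, had 59.1 CPM in KO and 56.7 CPM in WT (0.07, SE 0.13, adjusted p = 0.832).

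Of 6 tested cholinergic genes 1 fell and 0 rose (median −0.35). It was Ache, the enzyme that the Colq product anchors, with 0.318 and 0.260 CPM in KO and 1.86 and 1.10 CPM in WT de novo Tregs (−2.32, SE 0.57, edgeR adjusted p = 0.0337). Of 8 tested phospholipase C genes, 3 fell and 0 rose (median 0.01), where 3.54% of all genes fell. Plcb4 had −1.43 (SE 0.21, adjusted p = 0.00169), Plcb3 −0.60 (SE 0.14, adjusted p = 0.0256) and Plcd1, the delta-class relative of Plcd3, −3.21 (SE 0.77, adjusted p = 0.0309) from at most 1.77 CPM in any WT de novo library. Ache and Plcd1 passed the count filter through the WT de novo libraries alone, so nothing is read from their calls. Plcg1, the isoform downstream of the T cell receptor, had 0.04 (SE 0.08, adjusted p = 0.886). None of 4 tested polycystin genes was called (median 0.06), and Ttc39b, the one tested relative of Ttc39c, had 0.09 (SE 0.11, adjusted p = 0.758).

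Fam129c, 1 of 2 other Niban family genes, fell, with 10.99 and 11.3 CPM in KO and 27.2 and 33.9 CPM in WT de novo Tregs (−1.44, SE 0.15, edgeR adjusted p = 0.000147), while Fam129b had −0.44 (SE 0.38, adjusted p = 0.631). Of 14 tested genes of the integrated stress response, with which Niban is associated, 1 rose and 3 fell (median −0.17), where 2.92% of all genes rose and 3.54% fell. Trib3, a pseudokinase gene, rose by 1.42 (SE 0.14, adjusted p = 0.00014), and Sesn2 (−0.94, SE 0.12, adjusted p = 0.000899), Asns (−1.94, SE 0.48, adjusted p = 0.036) and Shmt2 (−0.37, SE 0.08, adjusted p = 0.0173) fell. Atf4, the transcription factor of that response, had −0.15 (SE 0.09, adjusted p = 0.433). Of 4 tested genes of proglucagon processing, receptors and related hormones 1 fell and 0 rose (median −1.42), namely Ghrh, the growth hormone releasing hormone, with 0.358 and 0.111 CPM in KO and 1.60 and 2.30 CPM in WT (−3.04, SE 0.60, adjusted p = 0.0113). Ghrh, like Gcg, passed the count filter through the WT de novo libraries alone. Nothing is read from its call or from the median of these 4 genes.

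For scale, 9 of 23 tested textbook NF-kB targets fell in de novo Tregs and 4 rose, where 3.54% of all genes fell and 2.92% rose (median −0.18, beside −0.0027 over all genes). The falls included Cd83 (−1.93, SE 0.08, edgeR adjusted p = 1.86e-07), the survival genes Bcl2l1 (−1.94, SE 0.10, adjusted p = 6.05e-07) and Bcl2a1d (−2.89, SE 0.16, adjusted p = 1.57e-06), whose counts may be shared with near-identical copies, and the chemokine gene Ccl5 (−3.06, SE 0.24, adjusted p = 1.72e-05). In splenic Tregs 3 of 22 fell and 0 rose, where 0.758% of all genes fell (median 0.08), namely Bcl2a1d (−1.56, SE 0.16, adjusted p = 0.0118), Bcl2l1 (−0.75, SE 0.12, adjusted p = 0.035) and Cd83 (−0.51, SE 0.09, adjusted p = 0.0438).

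The genes whose log2 CPM over the 13 libraries was most like that of each of the 7 were ranked by Pearson's r among 13057 genes, as a description, since all points share libraries, depth and the genotype and stage differences. Colq was most like Lad1, a basement membrane gene (r = 0.965), Fas (r = 0.95) and Dnajc12 (r = 0.948). Lad1 had 29.2 ± 3.32 CPM in KO and 581.4 ± 15.7 CPM in WT de novo Tregs. Ttc39c was most like the phosphatase gene Dusp14 (r = 0.97), Cd82 (r = 0.955) and Abhd4 (r = 0.954), and Dusp14 had 0.538 ± 0.027 CPM in KO and 4.77 ± 0.515 CPM in WT de novo Tregs. Fam129a was most like Stx11 (r = 0.963), Cd83 (r = 0.943) and the sialyltransferase gene St8sia6 (r = 0.942), and Sdc4 was most like Lpcat1 (r = 0.927), Slain1 (r = 0.925) and Reps1 (r = 0.913).

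Of the genes with few counts in most groups, Pkd1l1 was most like Hist1h4m (r = 0.952), a histone gene with near-identical copies whose counts are uncertain, then the heparanase gene Hpse (r = 0.893) and Plcd3 (r = 0.885). Plcd3 was in turn most like Pkd1l1, followed by Pabpc1 and Krt17 (r = 0.835 each). Gcg was most like B9d1 (r = 0.895), Fam129c (r = 0.874) and Ttyh3 (r = 0.861). At such counts many libraries sit at 0, and an r of this kind is set by the few groups with reads.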

How the data were processed

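The deposited files hold whole-number counts for each gene, which the authors had not normalized, as the values show. Per the submitters' processing notes, the tools were STAR 2.5.2, Subread 1.5.2 with featureCounts, Picard 2.9.0, limma, MultiQC and FastQC, on build GRCm38. Which annotation release was used, and whether counting was stranded, is not given in the sources used here. All 13 sample columns were used.

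In R 4.3.3, edgeR 4.0.16 was run with TMM scaling, filterByExpr (minimum count 10, minimum total 15) and the quasi-likelihood F-test, within each stage for genotype and over all 13 libraries (6 group means, the 22048 genes common to the tables) for stage, with Benjamini-Hochberg adjustment over all genes tested. The steps were tested on simulated data. DESeq2 1.42.0, limma-voom 3.58.1, no count filter, other size factors, a replicate block and leaving out each library were tried as alternatives. CPM are unshrunk counts over the common-gene total, and likeness used log2 CPM with a prior count of 2.

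The 7 genes, the gene lists and the marker lists were chosen with earlier results of these data known. Named genes were the 7, Rel, up to 4 called genes per list, neighbours that were called or had at least 5 CPM in a group, and the 3 genes most like each of the 7. Sdc3, Plcg1, Ttc39b, Fam129b and Atf4 were named after their values were seen. Replicate numbers are not tied to animals, litters or days by the labels, so the reported fits do not pair libraries by them and the replicate block is only an alternative. 1 red cell and platelet marker list is not reported here as a sum.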

Additional observations from a re-analysis of the deposited data

Results flagged for a closer look

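The results below are pairs of contrasts in which every library moved one way in one contrast and every library moved the opposite way in the other. The difference between the contrasts was not tested in any of them, and values are ratios of mean CPM. Contrasts with 2 libraries a group often separate without overlap. KO was lower than WT without overlap for 11.5% of all tested genes in pre-Tregs, 27.1% in de novo and 23.5% in splenic Tregs. Such shares are not given for KO higher than WT or for the stage contrasts.

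Among the 7 genes, Sdc4 in splenic over de novo Tregs was at 1.34 in KO and 0.485 in WT. Ttc39c in de novo over pre-Tregs was at 0.340 in KO and 2.79 in WT. Pkd1l1 in splenic over de novo Tregs was at 0.370 in KO, which rests on 1 and 2 counts, and 2.57 in WT.

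In the same de novo over pre-Treg contrast, Plcb4 was at 0.397 in KO and 1.25 in WT, Fam129c at 0.738 in KO and 1.79 in WT, and Shmt2 at 0.862 in KO and 1.53 in WT. Bcl2l1 was at 0.452 in KO and 1.06 in WT, Ccl5 at 0.348 in KO and 4.27 in WT, Lad1 at 0.310 in KO and 1.17 in WT, and Dusp14 at 0.254 in KO and 2.42 in WT.

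In splenic over de novo Tregs, Ache was at 1.39 in KO and 0.220 in WT, and Fam129c at 1.04 in KO and 0.443 in WT. Bcl2l1 was at 1.53 in KO and 0.667 in WT, Bcl2a1d at 1.76 in KO and 0.694 in WT, and Nmt1 at 0.933 in KO and 1.09 in WT.

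For KO over WT, Sdcbp was at 1.23 in de novo and 0.962 in splenic Tregs, and Plcb3 at 1.42 in pre-Tregs and 0.650 in de novo Tregs. Shmt2 was at 1.36 in pre-Tregs, 0.768 in de novo and 0.784 in splenic Tregs. Ccl5 was at 1.45 in pre-Tregs, 0.118 in de novo and 0.549 in splenic Tregs.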

How the results depend on the processing

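No called value of the 7 genes changed sign under any alternative. Values that were not called and rest on few counts in KO did: Plcd3 in splenic against de novo Tregs had 0.57 on the log2 scale, and −0.33 to 4.29 with 1 library left out, and Pkd1l1 in de novo against pre-Tregs had 0.40, and −0.010 to 3.18 with 1 library left out. Gcg in de novo against pre-Tregs had a fitted −4.13 from 0 counts in both KO de novo libraries, which is no bound, and 0.063 with the replicate block. Of their alternative genotype values, 152 stayed on the same side of the threshold, 18 gained a call and 10 lost one. Of the stage values, 255 stayed, 5 changed sign, 2 gained and 19 lost a call. The cause of each shift was not tested.

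For KO against WT in pre-Tregs, 0 genes were called, and 88 with DESeq2, 14 without a count filter, 77 with the replicate block, 71 in the fit of all 13 libraries and 0 to 64 with 1 library left out, 64 being without KO replicate 2. Of the 7 genes 0 were called, and 3 with DESeq2, 3 in the fit of all 13 libraries, 2 with the replicate block and 0 to 3 with 1 library left out. In de novo Tregs 766 genes were called, 100 in the fit of all 13 libraries and 527 to 761 with 1 library left out, and of the 7 genes 7, 5 and 5 to 7. In splenic Tregs 168 were called, 526 with DESeq2, 475 without a filter, 361 with the replicate block, 60 in the fit of all 13 libraries and 220 to 2508 with 1 library left out. Of the 7 genes 5 were called, 3 in the fit of all 13 libraries and 4 to 6 with 1 library left out. Deviations of same-numbered splenic libraries were only weakly correlated (−0.113), and with 2 libraries a group the crosswise value of 0.113 follows from it. Pairing the splenic libraries crosswise, an alternative added after seeing the data, called 803 genes, and nothing is read from that count.

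Between stages, de novo against pre-Tregs called 4228 genes in KO, 2201 in a fit of those libraries alone and 1860 to 6534 with 1 library left out, and 4015 in WT, 6340 alone and 1274 to 1775 with 1 left out. Of the 7 genes, KO had 4, 1 alone and 2 to 4 with 1 left out, and WT had 4 throughout the libraries left out. Splenic against de novo Tregs called 1681 genes in KO, 2717 alone and 619 to 1115 with 1 left out, and 973 in WT, 4043 alone, 1583 with DESeq2 and 257 to 377 with 1 left out. Of the 7 genes, WT had 3, and 1 whichever library was left out. Low counts limit Plcd3, Pkd1l1 and splenic Gcg.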
